A study of Mus musculus with 12 samples.

Results

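The regions described here are the open chromatin around Spi1, Cebpa, Cebpb, Runx1 and Irf8, genes for transcription factors of the macrophage lineage. Peaks of all 12 peak lists were merged where they overlapped or touched, regions found in at least 2 lists were kept, and those within 50 kb of the mm10 span of these 5 genes were taken. This gave 109 regions of 76042 in the whole series: 17 at Spi1, 15 at Cebpa, 26 at Cebpb, 32 at Runx1 and 19 at Irf8. A further 38 regions near the genes were in 1 list only and were left out.

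The data are ATAC-seq, in which a transposase tags accessible DNA, from RAW264.7 cells, a transformed mouse macrophage line. There were 4 groups of 3 libraries: a stable line with doxycycline-inducible Nur77 (a nuclear receptor encoded by Nr4a1) given LPS or left untreated, and a line with inducible green fluorescent protein (GFP) given LPS or left untreated. Cells of every group received 1 µg/ml doxycycline for 18 h, and the dose of LPS, a bacterial endotoxin, was 500 ng/ml for 1 h. The labels give 1 line per transgene and do not say whether a line is a clone or whether the replicates were separate cultures, so the tests measure the spread between these libraries, which may be technical.

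These factors act in combination. Spi1 encodes PU.1, an ETS-family protein that opens and marks myeloid enhancers, and IRF8, an interferon regulatory factor needed for monocytes, binds many of them together with PU.1. C/EBPα, the product of Cebpa, drives progenitors into the granulocyte and monocyte lineage, and C/EBPβ, the product of Cebpb, is induced in activated macrophages. RUNX1 binds DNA with CBFβ and is required for definitive blood formation; its gene is transcribed from a distal and a proximal promoter. Levels of RNA or protein were not measured here, and an accessible region is not by itself an active one.

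The promoter sequences are shown because they are the starts of these genes that lay inside regions called in all 12 libraries. Each run holds the 250 bases before and the 50 bases after a start in RefSeq (GRCm38.p6, the mm10 assembly), where 4 of the 5 genes had an entry.
Cebpa chr7:35119043-35119342, plus strand: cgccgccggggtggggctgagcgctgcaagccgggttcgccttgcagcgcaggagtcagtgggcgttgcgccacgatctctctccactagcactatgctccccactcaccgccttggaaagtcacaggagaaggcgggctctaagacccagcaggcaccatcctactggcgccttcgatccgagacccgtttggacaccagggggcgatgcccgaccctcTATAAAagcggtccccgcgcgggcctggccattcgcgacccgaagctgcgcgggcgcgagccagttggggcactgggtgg
Cebpb chr2:167688665-167688964, plus strand: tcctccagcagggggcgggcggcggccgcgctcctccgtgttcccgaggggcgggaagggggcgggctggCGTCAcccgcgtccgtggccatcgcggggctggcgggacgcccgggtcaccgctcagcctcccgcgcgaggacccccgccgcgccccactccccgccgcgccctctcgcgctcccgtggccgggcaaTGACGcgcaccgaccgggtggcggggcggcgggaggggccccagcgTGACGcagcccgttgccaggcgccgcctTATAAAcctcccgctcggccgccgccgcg
Runx1 distal chr16:92826025-92826324, minus strand: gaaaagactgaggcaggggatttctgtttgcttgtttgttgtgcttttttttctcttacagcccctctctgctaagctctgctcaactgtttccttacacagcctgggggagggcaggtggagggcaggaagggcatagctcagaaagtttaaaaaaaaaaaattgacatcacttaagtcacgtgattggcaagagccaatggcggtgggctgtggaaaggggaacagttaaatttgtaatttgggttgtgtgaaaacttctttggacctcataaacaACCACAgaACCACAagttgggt
Runx1 proximal chr16:92697280-92697579, minus strand: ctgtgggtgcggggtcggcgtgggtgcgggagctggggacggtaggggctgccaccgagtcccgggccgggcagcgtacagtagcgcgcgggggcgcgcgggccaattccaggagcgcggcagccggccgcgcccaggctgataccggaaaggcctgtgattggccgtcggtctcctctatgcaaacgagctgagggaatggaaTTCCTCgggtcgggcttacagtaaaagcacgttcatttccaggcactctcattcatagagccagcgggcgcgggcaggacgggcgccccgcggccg
Irf8 chr8:120736108-120736407, plus strand: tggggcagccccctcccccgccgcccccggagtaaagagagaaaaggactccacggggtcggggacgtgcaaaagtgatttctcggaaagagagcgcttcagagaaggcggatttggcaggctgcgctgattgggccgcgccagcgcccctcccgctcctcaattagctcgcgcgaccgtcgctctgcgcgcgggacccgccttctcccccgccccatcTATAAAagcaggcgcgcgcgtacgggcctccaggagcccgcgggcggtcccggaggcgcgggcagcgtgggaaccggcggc
Capitals mark matches, on either strand, to any of 9 short motifs. A TATA motif (TATAAA, in 13.6% of 32851 mouse promoters of the same length) was found in the Cebpa, Cebpb and Irf8 promoters. The match lay before the RefSeq start in Cebpa and Irf8 and after it in Cebpb. The Cebpb promoter also held 3 copies of the CRE half-site (TGACG, in 20.8% of promoters). The distal Runx1 promoter held 2 copies of the RUNX motif (TGTGGT, 16.8%), both after the transcription start, and the proximal one held 1 ETS motif (GAGGAA, 28.3%). None of the 5 runs matched the motifs used for C/EBP (TTGCNNAA, 10.8%), IRF (3.44%), AP-1 (TGANTCA, 7.81%), NF-kB (1.63%) or the Nur77 element (AAAGGTCA, 1.51%). The matches did not overlap each other. The distal Runx1 promoter had a GC content of 45%, below the promoter median of 52.7%, and the other 4 runs lay between 67.3% and 80.7%.

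Lists held 36184 to 81467 peaks, and a background height derived from the deposited folds, a stand-in for depth, ran from 0.402 to 1.45 reads. Untreated Nur77 replicate 2 had the lowest and LPS-treated GFP replicate 3 the highest of both. Because weak regions are called in long lists and missed in short ones, 2 scales are used below. The shared-set percentile ranks a region by its strongest peak among the 26378 regions called in all 12 libraries, 100 being the strongest, and was tested with limma after conversion to normal scores. For regions called in part of the libraries the list percentile, the rank within the library's own list, is given as a description only. As a check of the labels, a region in Nr4a1 (chr15:101270092-101272260) was called in 6 of 6 Nur77 and 0 of 6 GFP libraries. Of 8 macrophage marker genes, 8 had a region at a gene end, called in 12 libraries for 7 of them and in 6 libraries for Cybb. Gata1, Tcf7, Bcl11b, Pax5, Twist1, Prrx1 and Neurod1, factors of other lineages, had none, while Klf1, Tal1 and Gata3 were called at a gene end in 12 libraries and Ebf1 in 8.

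Of the 109 regions, 51 (46.8%) were called in 12 of 12 libraries, against 34.7% of all regions in the series. The strongest region of each gene was among them. Their share was 9 of 17 at Spi1, 7 of 15 at Cebpa, 11 of 26 at Cebpb, 16 of 32 at Runx1 and 8 of 19 at Irf8. Per library, LPS-treated Nur77 cells had 78 ± 9 of the 109 regions called, untreated Nur77 cells 74.3 ± 11.6, LPS-treated GFP cells 81 ± 12.5 and untreated GFP cells 81.7 ± 5.13 (SD, n = 3 each). These groups overlapped, and the lowest and the highest library, with 61 and 94 regions, were the ones with the shortest and the longest list.

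**Figure D1:**
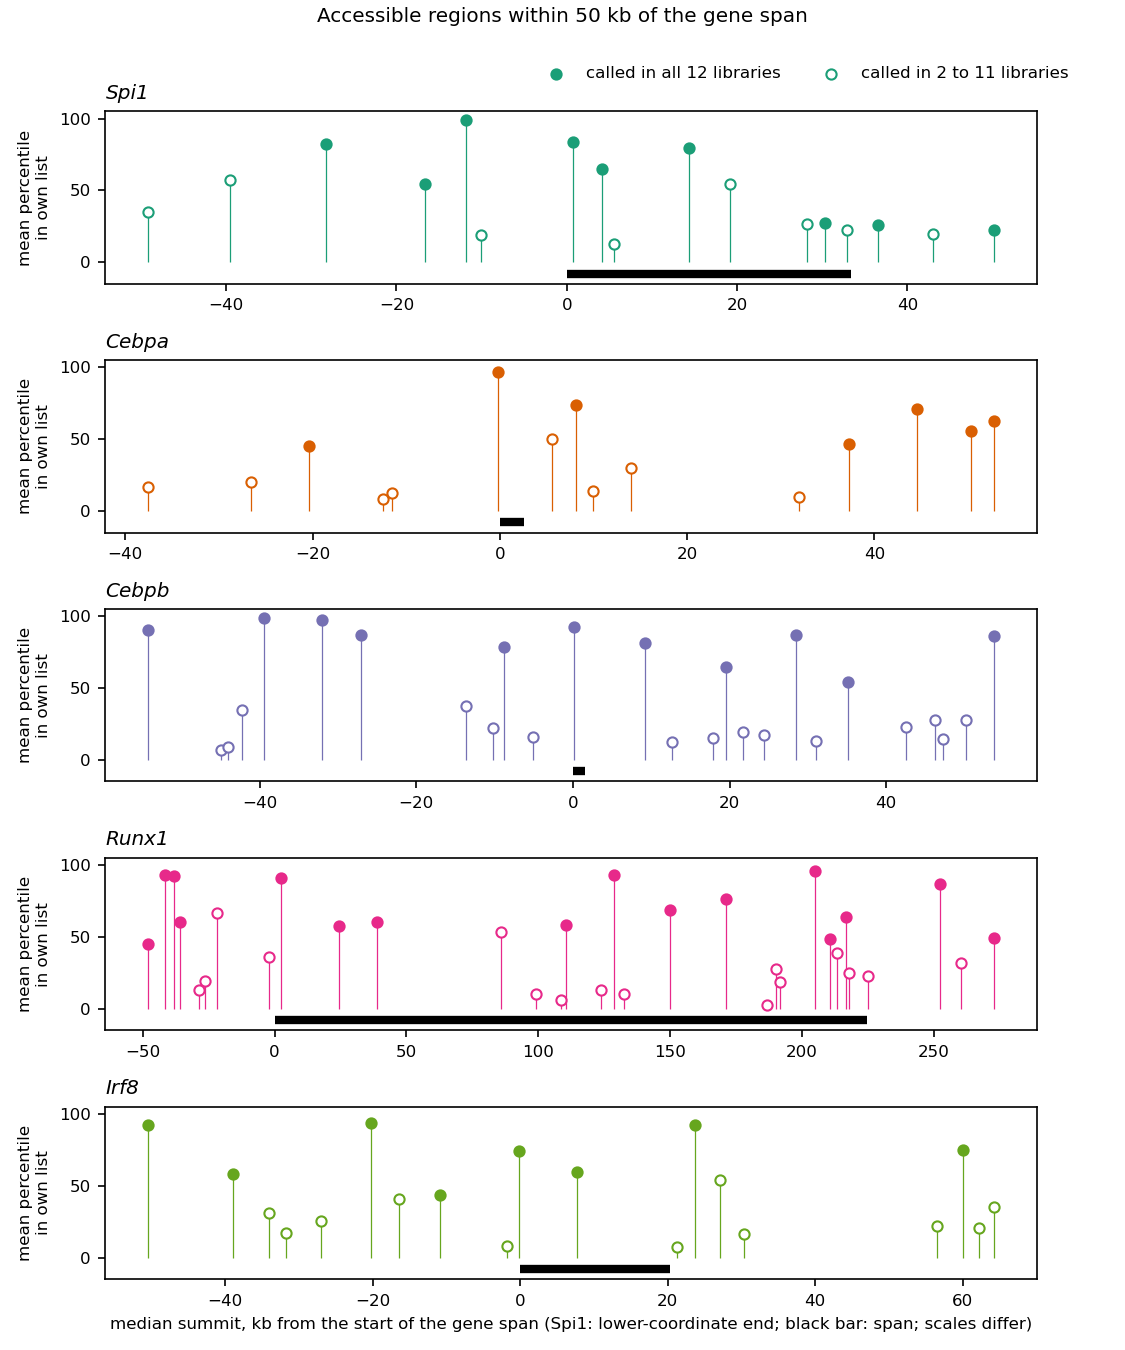
Accessible regions within 50 kb of each gene, with the median summit in kb from the start of the gene span, or for Spi1 from its lower-coordinate end (x axis, scales differ) and the mean percentile within the lists that called the region (y axis). Filled points are the 51 regions called in all 12 libraries, open points the 58 called in 2 to 11, and the black bar is the gene span. Most of the tall points are filled.

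At Spi1 (chr2:91082374-91115759) the strongest region lay outside the span, with its summit 11.8 kb from its lower-coordinate end. The tables used here give no strand for Spi1, so its distances are counted from that end. This region, chr2:91068714-91071338, is nearest to the neighbouring gene Slc39a13. Its shared-set percentiles ran from 96.9 to 99.4 over the 12 libraries, and its mean list percentile was 99.3. Mouse Spi1 is known to depend on an upstream regulatory element as well as on its promoter. Which regions those are was not assigned, since the table gives the span and not each transcript's start. The region at the lower-coordinate end (chr2:91080950-91085475) had a mean list percentile of 83.8, and those with summits 28.3 kb outside that end (chr2:91052048-91054920) and 14.4 kb inside the gene (chr2:91096109-91099347) had 82 and 79.4. At the other end of the span a weak region (chr2:91114549-91116075, mean list percentile 22.6) was called in 9 libraries.

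Cebpa (chr7:35119293-35121928) is a short gene that lies mostly within a single region, chr7:35117827-35121521, with shared-set percentiles of 91.6 to 97. The next strongest had summits 8.1 kb (chr7:35126508-35128569) and 44.5 kb (chr7:35162930-35164279) downstream, with mean list percentiles of 73.7 and 71. A region with its summit 37.3 kb downstream (chr7:35155751-35157177) lies at the distance at which a myeloid enhancer of mouse Cebpa is known. It was called in 12 libraries at low rank, with shared-set percentiles of 3.97 to 22.8.

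Cebpb (chr2:167688915-167690432) also lies within 1 region, chr2:167684592-167697038, which is 12447 bp long because neighbouring peaks join up, and whose shared-set percentiles ran from 79.5 to 90.4. Stronger still were regions with summits 39.4 kb (chr2:167648483-167651710, mean list percentile 98.8) and 32.1 kb (chr2:167656113-167658481, 97.5) upstream, both nearest to Tmem189 in the RefSeq table.

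Runx1 (chr16:92601466-92826074, minus strand) had 21 of its 32 regions inside the span. The distal promoter lies in chr16:92823093-92827067 and the proximal one in chr16:92694993-92699573, with mean list percentiles of 90.9 and 92.9. The strongest was near the 3′ side of the gene, 205.1 kb downstream of the distal start (chr16:92620182-92622640, 96), and the region upstream with its summit 41.4 kb away (chr16:92866684-92868843) had 93.4. A weak region at the gene's 3′ end (chr16:92599965-92601742, 23) was called in 10 libraries.

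At Irf8 (chr8:120736358-120756694) 17 of 19 regions lay outside the span. The 3 strongest had summits 20.2 kb upstream (chr8:120715027-120717132, mean list percentile 93.4), 23.7 kb downstream of the start (chr8:120759485-120761044, 92.1) and 50.5 kb upstream (chr8:120681950-120687221, 92). The region at the gene start (chr8:120735742-120737751) had 74.2, below these 3. A region with its summit 56.6 kb downstream (chr8:120792474-120793620), the distance at which a monocyte enhancer of mouse Irf8 is known, was called in 9 libraries with a mean list percentile of 22.1. At the 3′ end a faint region (chr8:120757292-120757964, 7.66) was called in 3 libraries.

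The first question was what 1 h of LPS did at these genes. Regions moved in both directions, and most calls were shared by the Nur77 and the GFP line. In the Nur77 line 9 of the 51 tested regions were higher and 6 lower after LPS than in untreated cells (29.4%; of all 26378 regions 14.6% passed in either direction, 8.58% higher and 6% lower). In the GFP line 8 were higher and 7 lower (29.4%; of all regions 19.2%, 10.7% higher and 8.57% lower). The threshold was an adjusted p of 0.05 in limma over all 26378 regions. The 2 lines shared 12 calls, 12 of 15 in each, 6 of them higher and 6 lower. Over all 26378 regions, 2490 passed in both lines in the same direction, of 3847 in the Nur77 and 5071 in the GFP line, and 0 in opposite directions. All 18 regions of these genes past the threshold in either line had the same sign in both, but 12 of them are the shared calls. The matching count over all regions past the threshold in either line was not taken. The median difference over the 51 regions was small, 0.11 in the Nur77 and 0.07 in the GFP line, beside −0.03 and −0.05 over all regions. By gene, in the Nur77 and then the GFP line, 8 and 7 of 16 tested regions passed at Runx1, 3 and 4 of 11 at Cebpb, 2 and 2 of 7 at Cebpa, 1 and 1 of 9 at Spi1, and 1 and 1 of 8 at Irf8. Differences below are on the normal-score scale, where 1 is the standard deviation of all tested regions in a library.

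**Figure D2:**
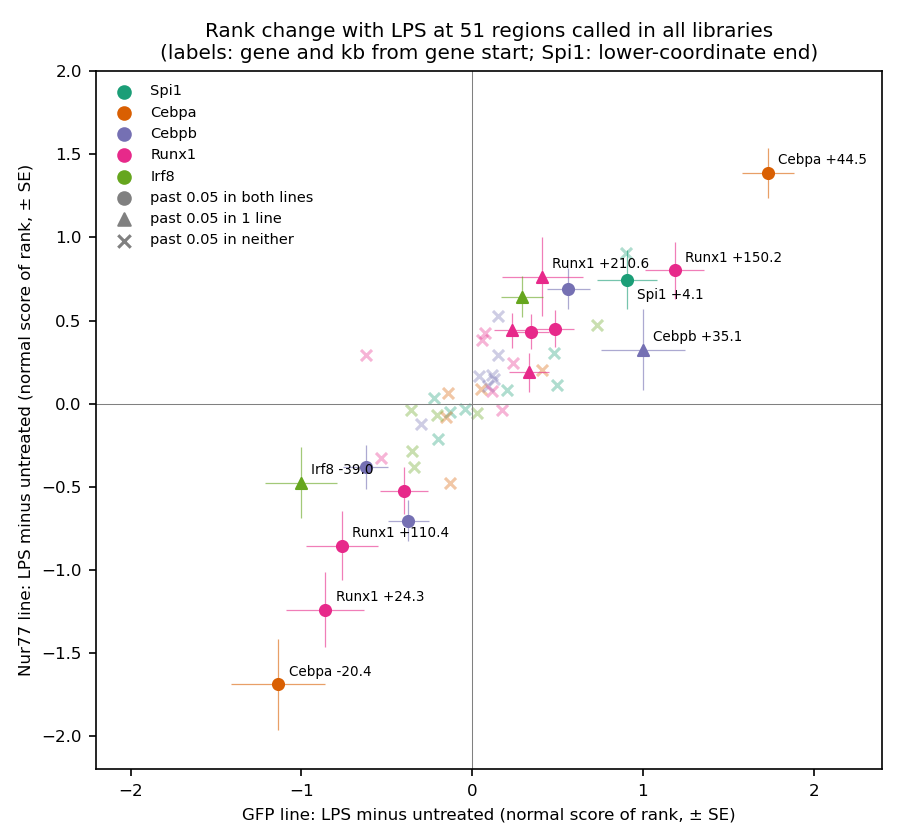
Difference in normal score of rank between LPS-treated and untreated cells in the GFP line (x axis) and the Nur77 line (y axis) for the 51 regions called in all libraries, coloured by gene. Circles passed in both lines, triangles in 1 line and crosses in neither; error bars, drawn for regions past the threshold, are SE. The 18 regions past the threshold in either line lie at the upper right and lower left of the origin.

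Cebpa held the region that rose most and the one that fell most. At the region with its summit 44.5 kb downstream, between Cebpa and Slc7a10, shared-set percentiles were 66.7, 71.5 and 72.7 in LPS-treated Nur77 cells, 14.8, 25.8 and 19.3 in untreated Nur77 cells, 77.8, 76.7 and 81.5 in LPS-treated GFP cells and 20.04, 14.7 and 18 in untreated GFP cells. The LPS-treated libraries lay far above the untreated ones with no overlap, and the difference was 1.39 ± 0.15 in the Nur77 line (SE, adjusted p = 4.92e-08) and 1.73 ± 0.15 in the GFP line (adjusted p = 5.34e-10). At the region with its summit 20.4 kb upstream (chr7:35097925-35099441) they were 1.14, 0.969 and 3.87 in LPS-treated Nur77 cells, 38.5, 47 and 17.2 in untreated Nur77 cells, 5.12, 4.62 and 2.15 in LPS-treated GFP cells and 23.3, 21.5 and 33.7 in untreated GFP cells. Each LPS-treated library was below each untreated one, and the untreated ones were spread widely. The difference was −1.69 ± 0.28 in the Nur77 line (adjusted p = 4.44e-05) and −1.14 ± 0.28 in the GFP line (adjusted p = 0.00328). When each list was cut to 36184 peaks, as many as the shortest holds, this region was called in 0 of 6 LPS-treated and 6 of 6 untreated libraries. The region over the Cebpa gene itself did not pass, with differences of −0.08 ± 0.11 and −0.15 ± 0.11 in the Nur77 and GFP lines (adjusted p = 0.717 and 0.373). For the region 37.3 kb downstream they were −0.48 ± 0.26 and −0.13 ± 0.26 (adjusted p = 0.258 and 0.783).

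Runx1 had the most calls. Inside the gene, 150.2 kb downstream of the distal start (chr16:92674921-92677061), shared-set percentiles were 55.3, 70.1 and 67.6 in LPS-treated Nur77 cells, 23.6, 38.7 and 39 in untreated Nur77 cells, 46.6, 59.7 and 53.5 in LPS-treated GFP cells and 15.1, 12.1 and 13.4 in untreated GFP cells. LPS-treated libraries were higher than untreated ones in both lines, by 0.80 ± 0.17 in the Nur77 line (adjusted p = 0.00118) and 1.19 ± 0.17 in the GFP line (adjusted p = 5.59e-06). Nearer to the distal start, in the first intron, a blood stem cell enhancer of mouse Runx1 is known. A region there with its summit 24.3 kb downstream (chr16:92800087-92802582) had shared-set percentiles of 5.55, 9.82 and 10.9 in LPS-treated Nur77 cells, 39.5, 58.2 and 36.7 in untreated Nur77 cells, 23.7, 6.01 and 13.3 in LPS-treated GFP cells and 39, 49.5 and 30.5 in untreated GFP cells. It fell by 1.24 ± 0.23 in the Nur77 line (adjusted p = 0.000221) and by 0.86 ± 0.23 in the GFP line (adjusted p = 0.00693). The GFP call was lost when LPS-treated GFP replicate 2 or untreated GFP replicate 2 was left out, with adjusted p up to 0.0609.

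Of the other Runx1 regions, the one 110.4 kb downstream (chr16:92714725-92716687) had 16, 16.9 and 22.6 in LPS-treated Nur77 cells, 46.5, 50.6 and 47.4 in untreated Nur77 cells, 14.2, 12.9 and 4.12 in LPS-treated GFP cells and 23.3, 36.1 and 28.3 in untreated GFP cells, with the LPS-treated libraries lower in both lines (−0.85 ± 0.21 and −0.76 ± 0.21, adjusted p = 0.00452 and 0.00909 in the Nur77 and GFP lines). The GFP call did not hold without LPS-treated GFP replicate 3 or untreated GFP replicate 2 (adjusted p up to 0.0755). The region 171.3 kb downstream (chr16:92653613-92655486) was lower too, with differences of −0.52 ± 0.14 in the Nur77 line and −0.40 ± 0.14 in the GFP line (adjusted p = 0.00994 and 0.0449), but the GFP call was lost on leaving out any of 8 libraries (adjusted p up to 0.167), namely every untreated GFP replicate, LPS-treated GFP replicates 2 and 3, LPS-treated Nur77 replicates 1 and 2 and untreated Nur77 replicate 3. The Nur77 call was lost without untreated Nur77 replicate 2 (0.0641). The strongest Runx1 region, 205.1 kb downstream, rose further, to 95, 97.1 and 95.9 in LPS-treated Nur77 cells, against 90.3, 92.2 and 89.9 in untreated ones, a difference of 0.43 ± 0.11 (adjusted p = 0.00464). In the GFP line its difference was 0.35 ± 0.11 (adjusted p = 0.0197, up to 0.0986 without LPS-treated GFP replicate 2 or untreated GFP replicate 1 or 2). The region with its summit 38.3 kb upstream (chr16:92864005-92865834) rose by 0.45 ± 0.11 in the Nur77 line and 0.49 ± 0.11 in the GFP line (adjusted p = 0.00493 and 0.00187).

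There were 3 Runx1 calls in 1 line only. The region 41.4 kb upstream rose by 0.44 ± 0.11 in the Nur77 line (adjusted p = 0.00428), beside 0.23 ± 0.11 in the GFP line (adjusted p = 0.127). A region 210.6 kb downstream (chr16:92615195-92616737) rose by 0.76 ± 0.24 in the Nur77 line (adjusted p = 0.0263), a call lost on leaving out any LPS-treated Nur77 replicate or untreated Nur77 replicate 1 or 3 (adjusted p up to 0.1), beside 0.41 ± 0.24 in the GFP line (adjusted p = 0.244). The proximal promoter rose in the GFP line, with percentiles of 85.9, 89.2 and 87.7 in LPS-treated GFP cells and 77.3, 79.6 and 81.4 in untreated GFP cells, a difference of 0.33 ± 0.12 (adjusted p = 0.0421) that was lost on leaving out any untreated GFP replicate, LPS-treated GFP replicate 2 or 3 or LPS-treated Nur77 replicate 1 (up to 0.139). In the Nur77 line its difference was 0.19 ± 0.12 (adjusted p = 0.322). The distal promoter did not pass in either line (−0.04 ± 0.11 in Nur77 and 0.18 ± 0.11 in GFP cells, adjusted p = 0.866 and 0.285).

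At Cebpb the regions called upstream were lower and those called downstream higher. The strongest, 39.4 kb upstream, had shared-set percentiles of 93.3, 96.2 and 96.2 in LPS-treated Nur77 cells, 99.1, 99.3 and 99 in untreated Nur77 cells, 97.2, 97.8 and 95.1 in LPS-treated GFP cells and 98.9, 98.3 and 98.9 in untreated GFP cells, a step down within the top of the set. Its difference was −0.70 ± 0.12 in the Nur77 line (adjusted p = 9.89e-05) and −0.37 ± 0.12 in the GFP line (adjusted p = 0.0287), where the call was lost without LPS-treated replicate 3, untreated replicate 1 or untreated replicate 3 (up to 0.172). The region 27.1 kb upstream (chr2:167658923-167662690) was also lower, with 69.3, 69.7 and 74.2 in LPS-treated Nur77 cells, 84.8, 84.6 and 77.8 in untreated Nur77 cells, 52.8, 51.9 and 72.5 in LPS-treated GFP cells and 84.8, 80.02 and 76.2 in untreated GFP cells. The difference was −0.62 ± 0.13 in the GFP line (adjusted p = 0.000892). In the Nur77 line it was −0.38 ± 0.13 (adjusted p = 0.0486), lost with lists of equal length, in the fit with the replicate number as a block and on leaving out any of 8 libraries (up to 0.15), which were the LPS-treated Nur77 and untreated GFP replicates and untreated Nur77 replicates 1 and 2.

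Downstream of Cebpb, the region with its summit 28.5 kb away (chr2:167714535-167718261) had 81.7, 87.3 and 76.4 in LPS-treated Nur77 cells, 63.3, 63.1 and 50.5 in untreated Nur77 cells, 85.4, 86.4 and 87.8 in LPS-treated GFP cells and 77.3, 65.7 and 68.3 in untreated GFP cells. It was higher after LPS by 0.69 ± 0.13 in the Nur77 line and 0.56 ± 0.13 in the GFP line (adjusted p = 0.000185 and 0.00149). A weaker region 35.1 kb downstream (chr2:167723357-167724420) had 13.7, 33.2 and 32.3 in LPS-treated Nur77 cells, 8.04, 25.8 and 18.3 in untreated Nur77 cells, 32.1, 31.1 and 31.1 in LPS-treated GFP cells and 8.87, 3.35 and 10.2 in untreated GFP cells. It passed in the GFP line (1.00 ± 0.24, adjusted p = 0.0034), beside 0.32 ± 0.24 in the Nur77 line (adjusted p = 0.441), where the groups overlapped. The region over the gene did not pass, with 0.17 ± 0.12 in Nur77 and 0.12 ± 0.12 in GFP cells (adjusted p = 0.399 and 0.539).

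At Spi1 a single region moved, inside the gene 4.1 kb from the lower-coordinate end of the span (chr2:91085979-91087348). Its shared-set percentiles were 58, 52.4 and 51.8 in LPS-treated Nur77 cells, 19, 31.5 and 28.6 in untreated Nur77 cells, 42.2, 50.8 and 39.4 in LPS-treated GFP cells and 18.4, 14.7 and 11.3 in untreated GFP cells. LPS-treated libraries were above untreated ones without overlap, by 0.74 ± 0.18 in the Nur77 line and 0.91 ± 0.18 in the GFP line (adjusted p = 0.00355 and 0.000357). The adjacent region at that end had 61.5, 73.6 and 65.3 in LPS-treated Nur77 cells, 77.7, 72.6 and 72.6 in untreated Nur77 cells, 56.5, 54 and 71 in LPS-treated GFP cells and 71.5, 65.2 and 67.5 in untreated GFP cells, with differences of −0.22 ± 0.13 in the Nur77 and −0.20 ± 0.13 in the GFP line that did not pass (adjusted p = 0.306 and 0.312). The strongest Spi1 region, 11.8 kb outside that end, did not pass either (−0.05 ± 0.13 in the Nur77 and −0.13 ± 0.13 in the GFP line, adjusted p = 0.858 and 0.534).

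Irf8 had 1 call in each line, at different regions. The region 23.7 kb from the start, just beyond the 3′ end of the gene, had 89.8, 90.6 and 94.2 in LPS-treated Nur77 cells, 76.5, 78.6 and 76.2 in untreated Nur77 cells, 82.3, 93 and 85.4 in LPS-treated GFP cells and 83.7, 78.8 and 78.7 in untreated GFP cells. It passed in the Nur77 line (0.64 ± 0.12, adjusted p = 0.000326), beside 0.29 ± 0.12 in the GFP line (adjusted p = 0.0944). The region 39 kb upstream (chr8:120696050-120698625) had 17.3, 28.7 and 15.9 in LPS-treated Nur77 cells, 43.6, 31.5 and 33.3 in untreated Nur77 cells, 5.12, 11 and 17.9 in LPS-treated GFP cells and 43.7, 32.8 and 43.2 in untreated GFP cells. It fell in the GFP line (by 1.00 ± 0.21, adjusted p = 0.000866), beside −0.48 ± 0.21 in the Nur77 line (adjusted p = 0.139). At the region of the Irf8 start the differences were −0.04 ± 0.15 in the Nur77 line and −0.36 ± 0.15 in the GFP line, neither past the threshold (adjusted p = 0.913 and 0.0904).

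**Figure D3:**
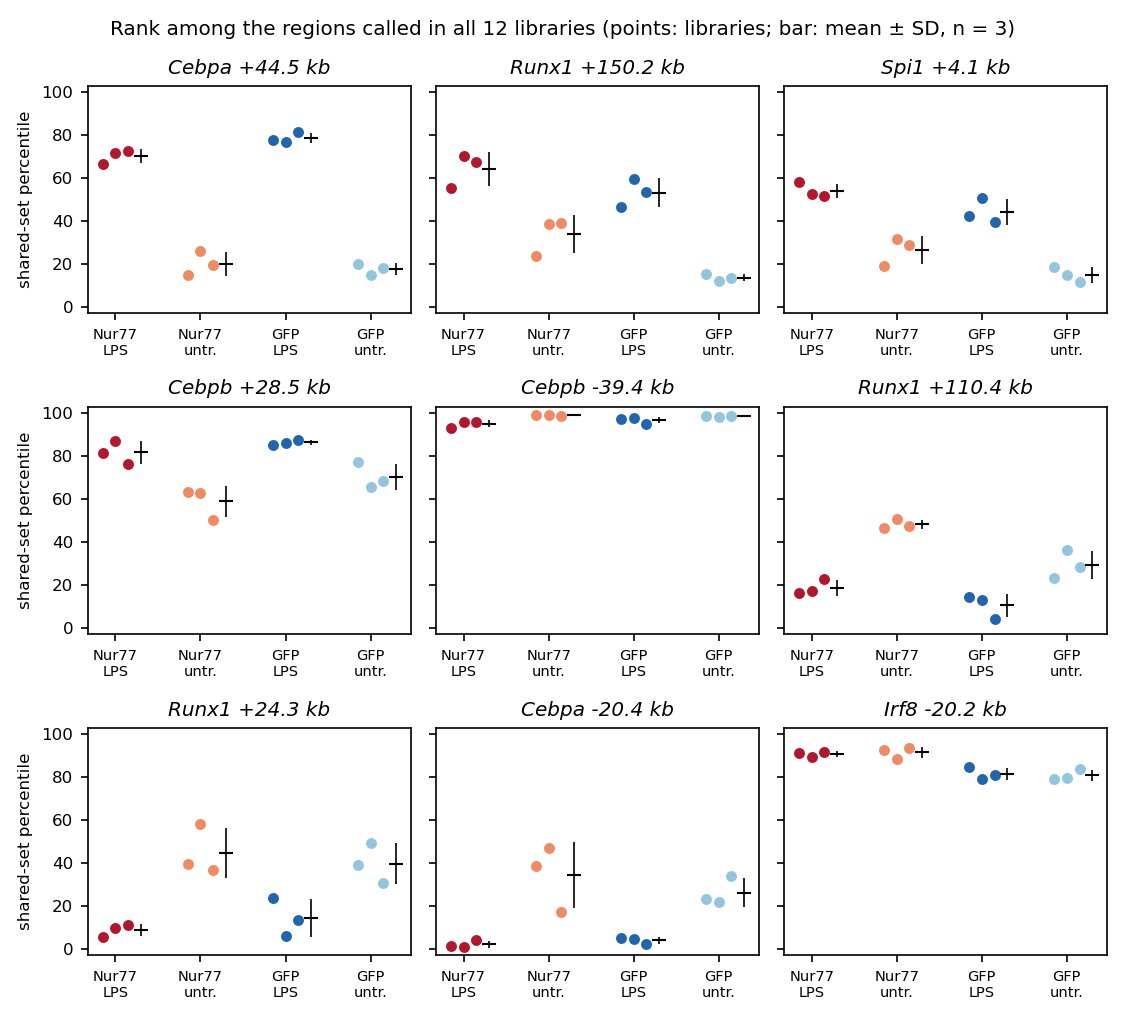
Shared-set percentile of 9 regions in each library, titled by gene and summit position: 4 that were higher and 4 that were lower after LPS in both lines, chosen as those with the largest summed difference, and the Irf8 region that differed between the lines. Points are libraries and bars are mean ± SD (n = 3). In the first 8 panels the LPS-treated points do not overlap the untreated points of their line.

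Whether the LPS response itself differed between the lines was tested as an interaction. None of the 51 regions passed in limma, and none of the 26378 did, with 1 and 1988 at an unadjusted p under 0.05. The interaction was 0.35 ± 0.17 for the Irf8 region past the 3′ end (adjusted p = 0.663), 0.53 ± 0.30 for the one 39 kb upstream (adjusted p = 0.742) and −0.68 ± 0.34 for the Cebpb region 35.1 kb downstream (adjusted p = 0.685). A call in 1 line only is therefore not a shown difference between the lines.

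Calls were then compared for all 109 regions. A region counted as gained when a peak was listed in 3 of 3 LPS-treated (or Nur77) libraries and in 0 of 3 untreated (or GFP) ones, and as lost in the opposite case, for which the smallest two-sided exact p is 0.1. With LPS in the Nur77 line 0 of 109 regions were gained and 0 lost (all regions 1.94% and 0.46%). In the GFP line 3 were gained and 0 lost (all regions 1.96% and 1.02%), a share near that of all regions. Over the 4 comparisons, the 8 regions gained or lost had mean list percentiles of 16.4 to 53.6, each over the libraries that list a peak there. One gained with LPS lies 14 kb downstream of the Cebpa start (chr7:35133093-35133633), with list percentiles of 17.3 in 1 of 3 LPS-treated Nur77 libraries, no peak in untreated Nur77 cells, 28.4, 31.3 and 41.9 in LPS-treated GFP cells and no peak in untreated GFP cells. Another is in Runx1, 190.4 kb downstream (chr16:92635447-92636065), with list percentiles of 27 in 1 of 3 LPS-treated Nur77 libraries, no peak in untreated Nur77 cells, 22.3, 2.4 and 59 in LPS-treated GFP cells and no peak in untreated GFP cells. The third is 31.7 kb upstream of Irf8 (chr8:120704175-120704759), with list percentiles of 5.2 and 10.2 in 2 of 3 LPS-treated Nur77 libraries, no peak in untreated Nur77 cells, 15.5, 43.9 and 10.1 in LPS-treated GFP cells and no peak in untreated GFP cells. Over both lines this last region was called in 5 of 6 LPS-treated and 0 of 6 untreated libraries (Fisher's exact test, two-sided p = 0.01515 and adjusted p = 0.215). With lists trimmed to equal length none of the 3 remained gained.

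A stronger region that was called in 10 libraries, and so was not tested by rank, is described after its values were seen. It lies 21.9 kb upstream of the distal Runx1 start (chr16:92847502-92848493), with list percentiles of 75, 73 and 77.3 in LPS-treated Nur77 cells, 47.4 and 48.2 in 2 of 3 untreated Nur77 libraries, 81.3, 68.1 and 82.6 in LPS-treated GFP cells and 52.4 and 59.2 in 2 of 3 untreated GFP libraries. Every LPS-treated value was above every untreated one.

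**Figure D4:**
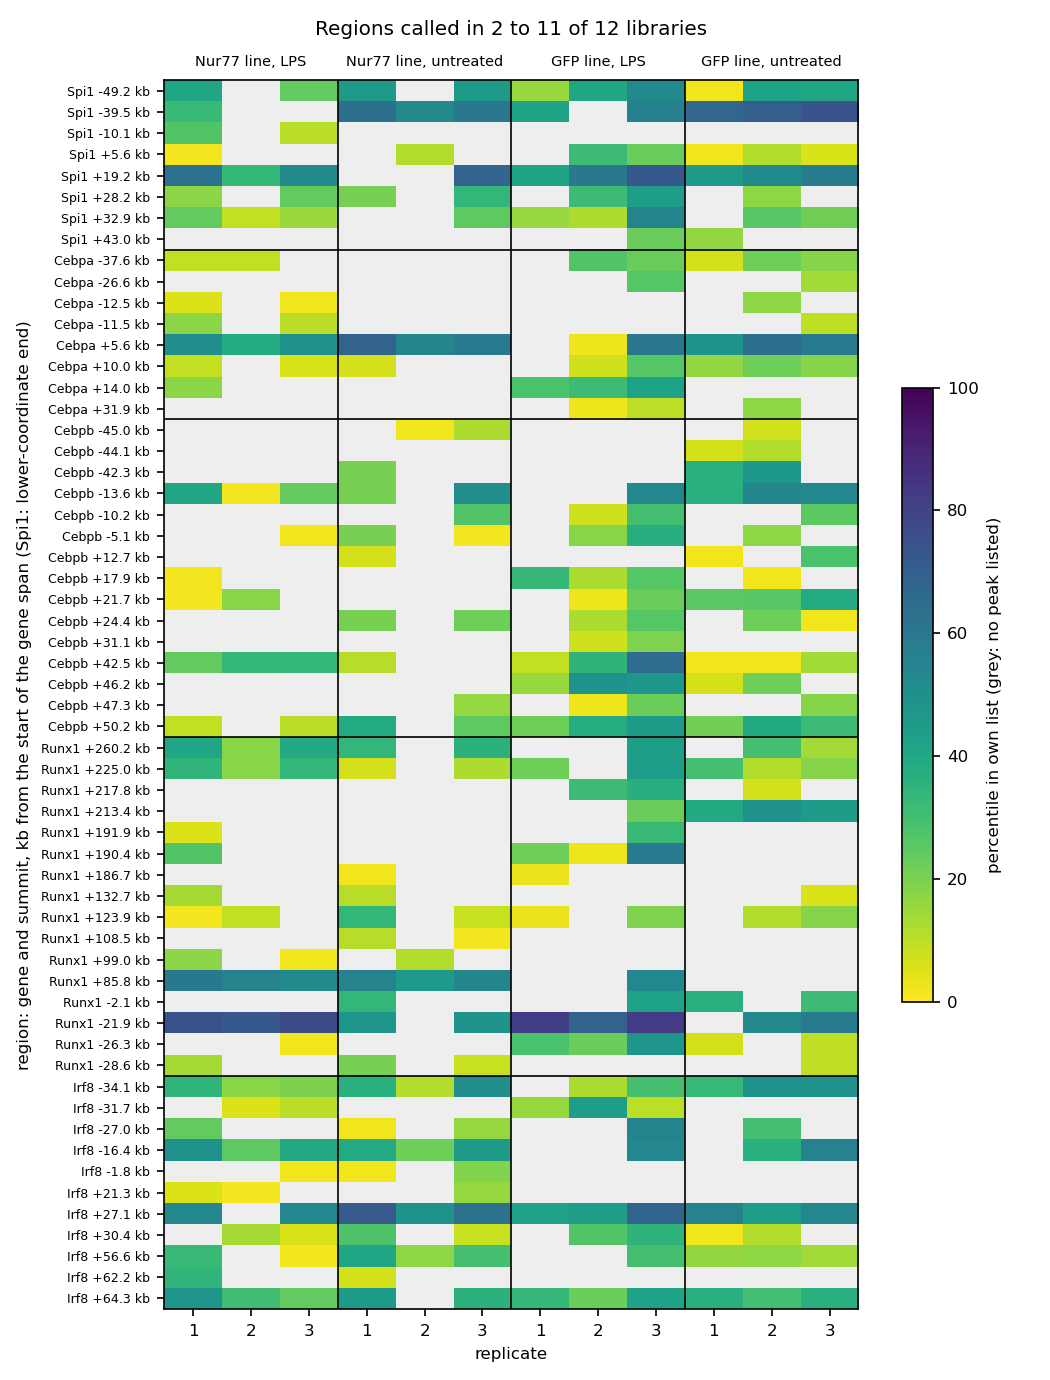
List percentile (colour) of the 58 regions called in 2 to 11 libraries, 1 row per region and 1 column per library in the 4 groups; grey means that no peak was listed. The Runx1 row at 85.8 kb is coloured in the 6 Nur77 libraries and in 1 GFP library, and the columns of the short lists hold the most grey.

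The second question was whether the Nur77 line differed from the GFP line. The lines differed by line as well as by transgene, which cannot be told apart. Few of the 51 tested regions separated them. In untreated cells 2 were higher and 1 lower in Nur77 than in GFP cells (5.88%; of all regions 8.33%, 3.1% higher and 5.22% lower), and after LPS 1 was higher and 0 lower (1.96%; of all regions 9.11%, 3.21% higher and 5.9% lower). Both shares were below those of all regions, but they rest on 3 regions and 1 region. Regions near related transcription factor genes, described below, also had low shares (4.55% and 5.3%). The Irf8 region with its summit 20.2 kb upstream, the strongest at that gene, was higher in Nur77 cells in both states. Its shared-set percentiles were 92.7, 88.5 and 93.5 in untreated Nur77 cells and 79, 79.6 and 84 in untreated GFP cells, and 91.4, 89.3 and 91.8 in LPS-treated Nur77 cells and 84.8, 79 and 80.9 in LPS-treated GFP cells. The 6 Nur77 values were all above the 6 GFP values, and the difference was 0.51 ± 0.11 in untreated cells and 0.43 ± 0.11 after LPS (adjusted p = 0.00226 and 0.0102), the second lost without LPS-treated GFP replicate 2 (0.0554).

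At Runx1 the region 150.2 kb downstream, one of those that rose with LPS, was already higher in untreated Nur77 than in untreated GFP cells (0.67 ± 0.17, adjusted p = 0.00973, or 0.0562 without untreated Nur77 replicate 3). After LPS the difference between the lines was 0.29 ± 0.17 (adjusted p = 0.317). The comparisons of LPS and of the lines share the untreated GFP libraries. The region 41.4 kb upstream was lower in untreated Nur77 cells, with 77.7, 76.8 and 81.4 in untreated Nur77 cells and 85.7, 89.5 and 90.3 in untreated GFP cells, a difference of −0.41 ± 0.11 (adjusted p = 0.0127, up to 0.0816 without untreated GFP replicate 2 or 3). At Spi1, Cebpa and Cebpb 0 of 27 tested regions passed between the lines in limma in either state, beside 8.33% and 9.11% of all regions. At an unadjusted p under 0.05 there were 5 in untreated cells and 3 after LPS, beside 5530 and 6105 of all 26378 regions. A count of 0 among 27 is not a shown trait of these genes.

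By calls, few regions differed between the lines. Their mean list percentiles ran from 16.4 to 53.6, beside a median of 40.6 over the 109 regions. In untreated cells 1 region was gained and 3 lost in the Nur77 relative to the GFP line (all regions 0.308% and 3.4%), and after LPS 0 were gained and 1 lost (0.304% and 2.18%). The shares lost were not above those of all regions, and the gain rests on 1 region. The gained region is in Runx1, 85.8 kb downstream of the distal start (chr16:92739909-92740721), with list percentiles of 55.1, 46.2 and 54 in untreated Nur77 cells and no peak in untreated GFP cells, and 59.5, 55.2 and 52.1 in LPS-treated Nur77 cells and 53.4 in 1 of 3 LPS-treated GFP libraries. It was called in 6 of 6 Nur77 and 1 of 6 GFP libraries (Fisher's exact test, two-sided p = 0.01515 and adjusted p = 0.19), the single GFP library being the one with the longest list. It remained gained in untreated cells with lists of equal length, and was then called in no GFP library.

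The regions lost in untreated Nur77 cells had mean list percentiles of 16.4 for the one 37.6 kb upstream of Cebpa (chr7:35080956-35081989), 19.4 for the one 21.7 kb downstream of Cebpb (chr2:167709949-167711044) and 39 for the one 213.4 kb downstream in Runx1 (chr16:92612390-92612938). The Cebpa and Cebpb ones were called again in 2 of 3 LPS-treated Nur77 libraries. The Runx1 one was called in 0 of 6 Nur77 and 4 of 6 GFP libraries (Fisher's exact p = 0.06061, adjusted p = 0.345). It had no peak in untreated Nur77 cells, and list percentiles of 39.2, 48.8 and 45.1 in untreated GFP cells. After LPS, the lost region lay 46.2 kb downstream of Cebpb (chr2:167734735-167735445). No peak was listed in LPS-treated Nur77 cells, and list percentiles were 15.5, 48.8 and 47.4 in LPS-treated GFP cells. Over both states it was called in 0 of 6 Nur77 and 5 of 6 GFP libraries (Fisher's exact p = 0.01515, adjusted p = 0.19). Untreated Nur77 replicate 2 had the shortest list. With lists trimmed to equal length the Cebpa region and the Cebpb region lost in untreated cells were called in 0 of 12 libraries, and the Cebpb region lost after LPS in 1 LPS-treated GFP library, so these 3 were no longer lost. The Runx1 region was still lost in untreated cells, with calls in 0 of 3 Nur77 and 3 of 3 GFP libraries. Of the 23 member regions called in 4 to 8 libraries, Fisher's exact test called 0 after adjustment for LPS and 0 for the lines, with 1 and 2 at an unadjusted p under 0.05. Over all 20292 such regions it also called 0, though at an unadjusted p under 0.05 the calls were more frequent after LPS in 5.56% and less frequent in 1.48%, and 0.651% and 7.32% for Nur77 beside GFP cells. The lowest adjusted p of Fisher's exact test over these regions was 0.0935 for LPS and 0.0923 for the lines. Even a full separation of the calls could therefore not have passed.

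Related transcription factor genes were set beside the 5. A list of 31, among them the family members Spib, Cebpd, Runx3 and Irf1 and the partner Cbfb, had 371 regions nearby, 132 of them tested by rank. With LPS in the Nur77 line 8 were higher and 11 lower (14.4%), and in the GFP line 15 and 16 (23.5%), close to the shares of all regions. The median differences were −0.02 and 0.01. Examples past the threshold in both lines, chosen after their values were seen, were a region inside Bach1, a repressor of oxidative stress genes, with 0.76 ± 0.15 in the Nur77 and 0.98 ± 0.15 in the GFP line, and a region inside Runx2, a relative of Runx1, with 1.54 ± 0.28 and 1.57 ± 0.28. Another region inside Runx2 was lower in both (−0.705 ± 0.149 and −0.461 ± 0.149). Near Irf1, a region at 15.3 kb was lower in both lines (−0.664 ± 0.116 in the Nur77 and −0.715 ± 0.116 in the GFP line), while those at 5 kb (0.351 ± 0.112 and 0.55 ± 0.112) and 27 kb (0.816 ± 0.137 and 0.413 ± 0.137) were higher in both. Between the lines 1 was higher and 5 lower in untreated Nur77 than GFP cells (4.55%, all regions 8.33%). After LPS 3 were higher and 4 lower (5.3%, all regions 9.11%). One of the lower ones, picked as an example, lies in Id2 on chromosome 12, an inhibitor of helix-loop-helix factors (−0.695 ± 0.117 in untreated cells, adjusted p = 0.000164, and −0.542 ± 0.117 after LPS, adjusted p = 0.0027). Whether regions of that chromosome differ between the lines as a whole was not tested. Cebpg is a neighbour of Cebpa, so some regions belong to both windows, the falling Cebpa region among them.

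Genes that these factors are known to drive in myeloid cells gave shares near those of all regions. Near 17 of them, among them Cd14, Itgam, Lyz2 and Cybb but also Elane, Mpo and Csf3r, 110 regions were tested. Of these regions 7 were higher and 8 lower with LPS in the Nur77 line (13.6%) and 5 and 15 in the GFP line (18.2%). The regions named next are examples picked from these calls. In the lower direction, a region at Ctss fell by 0.671 ± 0.182 in the Nur77 and 0.862 ± 0.182 in the GFP line. Regions 7.5 and 48.1 kb from Elane were also lower in both lines. Cybb, a subunit of the phagocyte oxidase, had a region inside the gene that rose by 1.23 ± 0.26 in the Nur77 and 1.65 ± 0.26 in the GFP line (adjusted p = 0.00129 and 2.68e-05). A region 10.8 kb from Cd14, an LPS co-receptor, rose by 1.75 ± 0.29 in the Nur77 line (adjusted p = 5.32e-05). In the GFP line its difference was 0.71 ± 0.29 (adjusted p = 0.0852), and the test of the difference between the lines' responses did not pass (1.04 ± 0.41, adjusted p = 0.562). In untreated cells it was lower in the Nur77 than in the GFP line (−1.21 ± 0.29, adjusted p = 0.00607). Between the lines 1 was higher and 8 lower in untreated Nur77 than GFP cells (8.18%), and 3 and 8 after LPS (10%). Of 11 factors of other lineages, 8 had regions called in all 12 libraries nearby, 30 in all. With LPS 1 was higher and 2 lower in the Nur77 line (10%, all regions 14.6%). In the GFP line 1 was higher and 4 lower (16.7%, all regions 19.2%). Between the lines 1 was higher and 1 lower in untreated Nur77 than GFP cells (6.67%, all regions 8.33%), and 0 and 2 after LPS (6.67%, all regions 9.11%).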

How the data were processed

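Each of the 12 ATAC-seq libraries (RAW264.7 lines, 4 groups of 3 from the titles) was deposited as 1 narrowPeak list, called per library. The build (mm10), cutadapt 2.6 and DiffBind 3.0.15 are named per the submitters' processing notes. An aligner or peak caller is not given in the sources used here. The names of peaks record mapping quality, mitochondrial and duplicate filters and a q value threshold. The deposited score is the authors' whole number per peak, the deposited fold is the authors' enrichment ratio at the summit, and the deposited −log10 p and −log10 q are the authors' values there. They served only to rank and filter peaks within a list.

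Entries with identical bounds were collapsed, peaks merged across lists into 100374 regions, and the 76042 in at least 2 lists used, with a call at 1 bp of overlap. Genes came from RefSeq spans (21887 protein-coding genes). Starts are printed 1-based. Ranks by −log10 q among the 26378 regions called in all 12 libraries were turned into normal scores and fitted with limma 3.58.1 in R 4.3.3 (group means, trended variance, all 12 libraries), with Benjamini-Hochberg adjustment over all of them. Fisher's exact test (scipy 1.17.1) was run on the 20292 regions called in 4 to 8 libraries, adjusted likewise. Folds are steps of whole reads, from which the background height was derived; with a tolerance of 0.1 reads 100% of folds fitted it. Read totals are not known, so no counting interval is given.

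The fit was tested on simulated data of 26378 regions. For LPS in the GFP line it recovered 73 of 100 regions shifted by 1 and 20 of 100 shifted by 0.5. It made 5 false calls. For LPS in the Nur77 line these counts were 72, 19 and 8. The simulated noise was independent between regions and libraries, and far fewer regions were shifted than passed in the real data. These counts are therefore not error rates of the reported calls. Named were all regions at gene ends, the 3 strongest per gene, and those gained, lost or past a test. Alternatives were lists of equal length (36184 peaks), a −log10 q of at least 5, peaks over 50% of a region, a 20 kb window, ranks by fold, a replicate block, and each library left out. The members, gene lists and tests were chosen with earlier results of these data known. Sequences are from a RefSeq promoter table. Versions were Python 3.11.15, numpy 2.4.6, pandas 2.3.3 and matplotlib 3.10.9.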

Additional observations from a re-analysis of the deposited data

How the results depend on the processing

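Of the 34 rank calls on named regions, 22 held under every alternative that gave a value, 12 were lost under at least 1 and 0 reversed. Ranking by the authors' fold gave the same calls. The same number of all 26378 regions also passed in every contrast, so this ranking adds no separate check. With lists trimmed to equal length, 39 of the 51 regions were still called in all 12 libraries and could be tested. Of these, 10 and 11 passed for LPS in the Nur77 and GFP lines (all 21752 regions tested, 13.8% and 18.7%), and 3 and 2 between the lines in untreated and LPS-treated cells (7.86% and 8.92%). Of the 15 LPS calls in each line 11 and 10 could still be tested, and 10 in each passed. The counts of regions called in 1 group and not in the other were less stable. With lists of equal length, LPS in the Nur77 line lost 3 and in the GFP line gained 0 and lost 3; the Nur77 line lost 1 in untreated cells, and gained 2 and lost 0 after LPS; Fisher's exact test called 1 region for LPS, the Cebpa region 20.4 kb upstream. A −log10 q of at least 5 gave 3 lost between the lines after LPS. Peaks over 50% of the region gave 2 gained with LPS in the Nur77 line, 1 lost in the GFP line, and 1 and 3 lost between the lines in untreated and LPS-treated cells. The 20 kb window gave 0 lost after LPS. The cause of these shifts was not tested, except that trimming leaves fewer peaks and the 20 kb window fewer regions.

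Leaving out each library in turn gave these ranges. With a library left out, the rule for gained or lost regions asks for fewer libraries, so those counts could only stay or rise. LPS in the Nur77 line gained 0 to 3 and lost 0 to 2, and in the GFP line gained 3 to 4 and lost 0 to 3. The Nur77 line gained 1 to 3 and lost 3 to 5 in untreated cells, and gained 0 to 4 and lost 1 to 7 after LPS. The highest of these came without LPS-treated GFP replicate 1 (7 lost), and without LPS-treated Nur77 replicate 2 or LPS-treated GFP replicate 3 (4 gained). Fisher's exact test called 0 each time. By rank, 13 to 15 regions passed for LPS in the Nur77 line, 11 to 17 in the GFP line, 2 to 6 between the lines in untreated cells (6 without untreated Nur77 replicate 1) and 1 to 3 after LPS (3 without untreated Nur77 replicate 2, and 2 without LPS-treated GFP replicate 1 or 3), with 0 for the interaction.

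The replicate numbers of the titles did not pair the samples: correlations of deviations ran from −0.157 to 0.144 for same-numbered libraries and from −0.146 to 0.218 for others. The fit with the replicate number as a block gave 14 and 15 regions for LPS in the Nur77 and GFP lines, 3 and 1 between the lines, and 0 for the interaction. Depth limits the weak regions, since a region missed in a short list may still be accessible.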

Other observations

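The genes most like each member in the mean rank of their regions over the 12 libraries, among 12733 genes more than 200 kb away, are given as a description with Pearson's r over 12 points that share groups and depth. For Irf8 they were Wdr26 (0.971), Eef2k (0.956) and Slc12a8 (0.949), for Cebpa Mrps22 (0.938), Irf7 (0.885) and Idua (0.882), and for Spi1 Chchd6 (0.925), Rassf5 (0.917) and Spryd7 (0.907). For Runx1 they were Cradd (0.887), Inpp1 (0.868) and Zfp185 (0.866), and for Cebpb Bbx (0.862), Eif1 (0.860) and Upp2 (0.856). Cebpa and Cebpb entered with 1 region each, the one over the gene, Irf8 with 2, Spi1 with 4 and Runx1 with 10.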
